A study of Mus musculus with 30 samples.

Results

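Tracheas of mouse embryos at E18.5 (embryonic day), just before birth, were compared between embryos with a conditional deletion of Myocd and their controls. The comparison takes the 4 control and 6 mutant libraries of the trachea count table, 10 of the 30 samples of the series, which otherwise holds lungs of the same cross at E13.5 and E18.5. Each library was made from the trachea of 1 embryo, and litters and batches are not given in the sources used here. Controls carried Tbx4rtTAi/+; tetOcrei/+; MyocdF/+, and mutants carried Tbx4rtTAi/+; tetOcrei/+; MyocdF/F. Both genotypes therefore held the Tbx4-driven reverse tetracycline transactivator, the tetracycline-responsive Cre recombinase and at least 1 floxed Myocd allele, so that the mutants were set against heterozygous embryos with Cre and not against wild type. The transactivator is driven in Tbx4-expressing mesenchyme, and cells outside that domain would keep their floxed alleles.

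Myocd encodes myocardin, a transcriptional coactivator that acts through serum response factor (SRF). SRF binds the CArG box, a short motif found near many genes of the contractile apparatus, and myocardin bound to SRF is a known activator of the smooth muscle programme. In the trachea, the smooth muscle spans the open dorsal side of the cartilage rings, its tone is set by parasympathetic acetylcholine acting on muscarinic receptors, and cartilage fills the ventral and lateral wall.

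The 10 libraries held between 11738468 and 30465585 counted reads, with control 2 (11738468) and mutant 4 (12384284) the shallowest. Levels are given as CPM, read counts of a gene relative to a library size that was scaled by the trimmed mean of M values (TMM). Differences are log2 fold changes, mutant minus control, with a standard error (SE) from edgeR's quasi-likelihood F test over the 18315 genes with enough reads, and p-values are Benjamini-Hochberg adjusted over all of them. A gene is said to have risen or fallen where the adjusted p was under 0.05. The biological coefficient of variation was 0.37. On a multidimensional scaling plot control 2 stood apart along dimension 1 (29.7% of the variance) and mutant 4 along dimension 2 (18.6%). Markers of the trachea were present. Col2a1, the fibrillar collagen of cartilage, had a mean of 9074 CPM in control trachea and 1.77 CPM in control lung when all E18.5 libraries were scaled together. Krt5, a keratin of basal cells, had 134 CPM against 0.0790 CPM, and Sftpc, the surfactant protein of alveolar type II cells, had 18.9 CPM against 9320 CPM.

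Myocd itself did not differ at the level of the whole gene. Controls 1 to 4 held 4.95, 0.881, 7.70 and 4.79 CPM, and the mutants held a lowest of 2.65, a median of 5.42 and a highest of 8.73 CPM. The ranges overlapped, with the lowest value in control 2 and the highest in mutant 2, and the log2 fold change was 0.26 (SE 0.455, edgeR adjusted p = 0.911). The floxed exons are not named in the labels, and reads were summed over all exons of the gene (chr11:65176561-65269989, GRCm38), so this count cannot check the deletion. None of the 178 tested genes within 5 Mb of Myocd passed the test, and 16 of them had an unadjusted p under 0.05. Over all genes tested, 0.071% passed, and 3.42% were lower and 3.33% higher at that unadjusted p.

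Few genes passed in all. Of 18315 genes, 13 passed (0.071%): 12 fell (0.0655%) and 1 rose (0.00546%), with 626 lower (3.42%) and 610 higher (3.33%) at an unadjusted p under 0.05. All 6 mutants lay below all 4 controls for 223 genes (1.22%) and above them for 199 (1.09%). The median log2 fold change over all genes was 0.016, and 47.4% of the genes were below 0. Other tools called more: DESeq2, which the series' own design names, called 74 lower (0.34%) and 25 higher (0.115%) of 21777 genes, and limma voom with quality weights, which gives control 2 a weight of 0.229 and mutant 4 a weight of 0.327, called 127 lower (0.693%) and 18 higher (0.0983%). All 13 genes were also called by both of these.

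**Figure D1:**
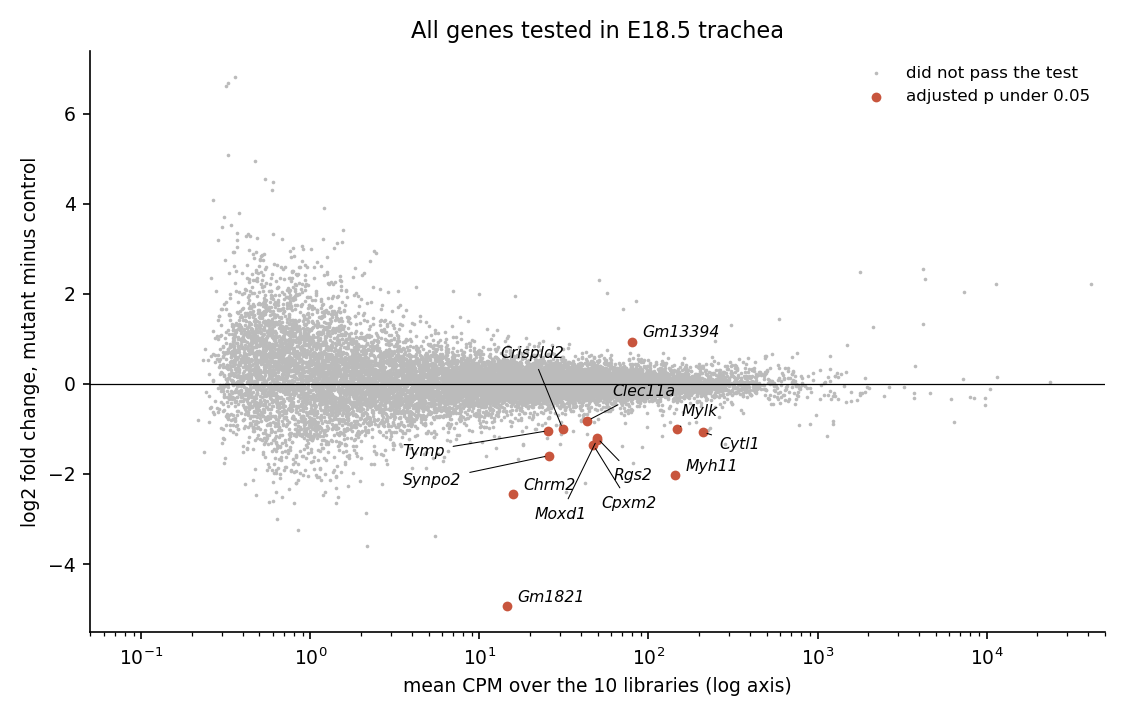
Log2 fold change (mutant minus control) against mean CPM over the 10 trachea libraries on a log axis, with each point a tested gene and the 13 genes past the test in red. Of the 13, only Gm13394 lies above 0, and Gm1821 lies lowest at -4.93.

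The contractile genes of smooth muscle were lower in mutant trachea. Myh11, the smooth muscle myosin heavy chain (chr16:14194535-14291372), was at 212, 200.03, 352 and 287 CPM in controls 1 to 4. In the mutants its lowest value was 48.3, its median 64.4 and its highest 86.0 CPM. Every mutant was below every control, and the mean fell 4.07-fold, from 263 ± 71.0 (SD, n = 4) to 64.6 ± 12.4 CPM (SD, n = 6), a log2 fold change of -2.02 (SE 0.171, edgeR adjusted p = 7.23e-05). In bulk tissue, fewer cells of a type and less RNA per cell cannot be told apart, here and for the genes below.

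Mylk, the kinase that phosphorylates the myosin light chain to start contraction (chr16:34745210-35002420), was at 186, 192, 242 and 225 CPM in the controls. The mutants ranged from 78.5 over a median of 112 to 121 CPM, again with no overlap, and the log2 fold change was -1.002 (SE 0.130, edgeR adjusted p = 0.00657). Synpo2, an actin-binding protein of the contractile cytoskeleton (chr3:123076519-123236149), was at 47.9, 34.8, 43.3 and 46.3 CPM in the controls and between 6.45 and 24.7 CPM, with a median of 13.48, in the mutants. Its log2 fold change was -1.59 (SE 0.262, edgeR adjusted p = 0.0380), with mutant 1 the lowest and mutant 6 the highest of the mutants.

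Myh11, Mylk and Synpo2 were the only members to pass among 37 tested genes of a contractile smooth muscle list of 38. Of the 37, 30 had a log2 fold change below 0, none rose, 12 had all mutants below all controls, and the median was -0.38. For 18 of them the unadjusted p was under 0.05 with the mutants lower. Over all genes tested, 47.4% were below 0, 1.22% had all mutants below all controls, and 3.42% had such an unadjusted p. The lists were chosen with earlier results of these data known, so their shares are not independent of the data. The 12 genes of the list that striated muscle uses little showed a larger difference, with a median of -0.97, 9 genes without overlap and 11 below 0. Summed over these 12 genes, controls 1 to 4 held 1174, 1193, 1475 and 1450 CPM, and mutants 1 to 6 held 479, 727, 607, 439, 586 and 418 CPM. The sums did not overlap, and the highest mutant, mutant 2, was at 727 CPM against 1174 CPM in the lowest control.

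Several of the best known smooth muscle genes, singled out here after their values were seen, did not pass although their ranges did not overlap. Acta2, the smooth muscle α-actin, was at 305, 256, 337 and 365 CPM in the controls and at 31.1 to 188 CPM, with a median of 70.3, in the mutants. Its log2 fold change was -1.85 (SE 0.504, edgeR adjusted p = 0.573), and its mutant levels spread over a wider range than those of Myh11, with mutant 2 (188 CPM) and mutant 3 (128 CPM) the highest. Cnn1, the actin-associated calponin of smooth muscle, was at 56.2, 56.3, 66.2 and 76.5 CPM in the controls and between 4.35 and 21.9 CPM in the mutants (-2.40, SE 0.404, edgeR adjusted p = 0.0821). Actg2, the enteric γ-actin, was at 66.1, 73.0, 83.3 and 93.8 CPM and between 4.85 and 29.9 CPM (-2.21, SE 0.531, edgeR adjusted p = 0.430). In Cnn1, Actg2 and Acta2 the lowest mutants were the same: mutants 1, 4 and 6 held less than mutants 2, 3 and 5 for each of the 3 genes.

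The following contractile and regulatory genes showed smaller differences than Acta2, Cnn1 and Actg2, with Tagln coming nearest (log2 fold change -1.70). Lmod1, a nucleator of actin filaments in smooth muscle, had a mean of 21.4 ± 1.80 CPM in controls and 11.2 ± 2.13 CPM in mutants (edgeR adjusted p = 0.0712). Cald1, caldesmon, had 96.8 ± 9.19 and 62.2 ± 7.51 CPM (edgeR adjusted p = 0.0573), and Myl9, the regulatory light chain, had 184 ± 37.5 and 102 ± 23.2 CPM (edgeR adjusted p = 0.124), all with 4 controls and 6 mutants and no overlap. Smtn, smoothelin, had 95.3 ± 9.87 and 77.4 ± 7.06 CPM with overlapping ranges. Ppp1r14a, an inhibitor of myosin phosphatase, had 12.001 ± 0.688 and 12.46 ± 3.75 CPM. Tagln (transgelin) had 10.3 ± 1.32 and 3.22 ± 1.92 CPM, but 67.9% of its exon bases also lie in exons of Pcsk7 or Gm48529, and reads there were not counted for any gene. Under DESeq2, 10 contractile genes were called, Cnn1, Actg2, Lmod1, Myl9 and Tagln among them, and limma voom called 13, Acta2 included.

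**Figure D2:**
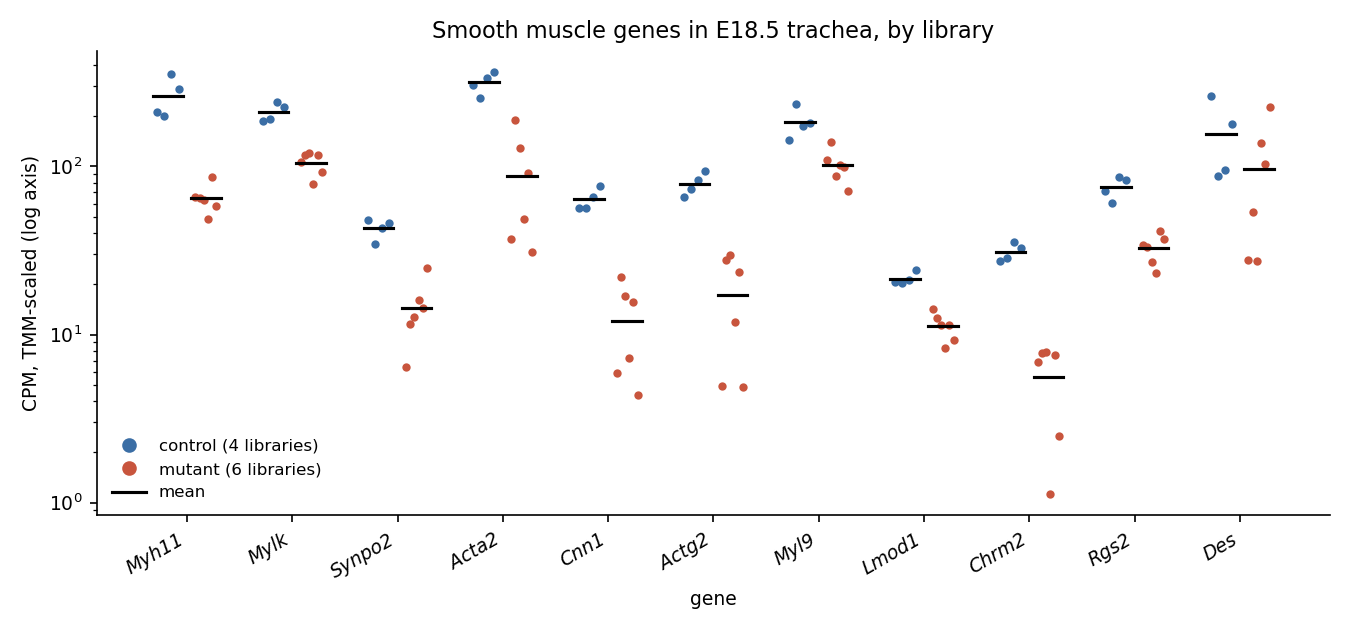
CPM on a log axis of 11 smooth muscle genes in the 4 control (blue) and 6 mutant (red) tracheas, a point per library and a black bar at each mean. Only Des, which striated muscle also expresses, overlaps between genotypes.

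Not every SRF-linked gene was lower. A list of SRF cofactors and cytoskeletal SRF targets had 15 tested members, of which none passed, and its median was 0.06. Actb (cytoplasmic β-actin) had a log2 fold change of 0.32 (edgeR adjusted p = 0.733). Tgfb1i1, a focal adhesion adaptor, was the member with the smallest p, at 88.0 ± 6.47 CPM in controls and 64.3 ± 5.24 CPM in mutants (edgeR adjusted p = 0.196).

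CArG boxes were searched in the 250 bases before each RefSeq start site, since they are the sequence through which SRF and myocardin act; the reverse complement of a CArG box is again one, so a single search covers both strands. Of 27025 genes with such a window, 439 (1.62%) held a box, and of 32 contractile genes with a window 5 held one (15.6%). None of the 10 genes past the test that had a window did, nor did any of 27 cartilage genes. The 5 windows are shown around the box, which is in capitals, 5′ to 3′ on the strand of the gene, from RefSeq with GRCm38.p6 coordinates, so that the boxes can be read beside the values of their genes.
Myl9: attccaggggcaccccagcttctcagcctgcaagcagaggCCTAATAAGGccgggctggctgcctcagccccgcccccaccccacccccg
Vcl: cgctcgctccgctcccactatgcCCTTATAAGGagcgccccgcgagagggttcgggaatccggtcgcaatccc
Filip1l: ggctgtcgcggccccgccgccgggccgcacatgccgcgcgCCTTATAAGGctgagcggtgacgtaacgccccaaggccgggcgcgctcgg
Fhl1: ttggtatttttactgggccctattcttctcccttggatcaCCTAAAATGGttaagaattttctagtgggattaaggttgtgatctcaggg
Myl6: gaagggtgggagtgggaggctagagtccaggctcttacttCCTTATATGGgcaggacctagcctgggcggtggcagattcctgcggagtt
Myl9 (chr2:156775263-156775352, plus strand) has its box ending 151 bases before the start site, and was the only gene of the 5 whose mutants all lay below the controls. Vcl, the focal adhesion protein vinculin (chr14:20929148-20929220, plus strand), carries the same box as Filip1l, a filamin-interacting protein (chr16:57549140-57549229, plus strand), 217 and 52 bases before the start. Their log2 fold changes were -0.30 (SE 0.236) and -0.59 (SE 0.216), with overlapping ranges. Fhl1, a LIM-domain protein (chrX:56779541-56779630, plus strand), and Myl6, the essential myosin light chain (chr10:128493010-128493099, minus strand), had log2 fold changes of 0.15 and 0.05. The window of Fhl1 belongs to a start that was not matched to a GENCODE transcript, and no match in a window says only that the letters are not there.

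A receptor and a regulator of receptor signalling in airway smooth muscle, Chrm2 and Rgs2, fell. Chrm2, the M2 muscarinic acetylcholine receptor (chr6:36388084-36528414), was at 27.3, 28.7, 35.5 and 32.9 CPM in the controls. The mutants were at 1.12 to 7.87 CPM with a median of 7.18, mutants 4 (1.12) and 6 (2.49) the lowest. No mutant overlapped the controls, the mean fell 5.56-fold, and the log2 fold change was -2.46 (SE 0.383, edgeR adjusted p = 0.0339). Rgs2, which shortens signalling of Gq-coupled receptors (chr1:143999338-144004161), was at 71.1, 60.6, 86.0 and 83.5 CPM in the controls and at 23.1 to 41.3 CPM, with a median of 33.6, in the mutants. It fell by 1.20 on the log2 scale (SE 0.157, edgeR adjusted p = 0.00657).

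Chrm2 and Rgs2 were 2 of 17 tested genes of a list of airway smooth muscle receptors and progenitor genes, and the other 15 did not pass. Of all genes tested, 0.071% passed. In the list 14 genes were below 0, 3 had all mutants below all controls, and 4 were lower at an unadjusted p under 0.05. The shares over all genes were 47.4%, 1.22% and 3.42%. The median of the list was -0.22. Chrm3, the M3 receptor that triggers contraction, was at 5.36 ± 1.38 CPM in controls and 3.78 ± 0.575 CPM in mutants, with overlap (edgeR adjusted p = 0.742). Ntn1, netrin 1, a secreted guidance protein, was at 83.5 ± 6.73 and 57.3 ± 9.13 CPM without overlap (edgeR adjusted p = 0.263). Genes of mesenchymal cells that can give rise to airway smooth muscle differed little, with log2 fold changes of -0.11 for Fgf10, a growth factor of the mesenchyme, 0.04 for Pdgfra, a growth factor receptor, and -0.07 for Lgr6, a Wnt pathway receptor. Of 15 vascular smooth muscle and pericyte genes none passed and the median was -0.06.

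The other genes past the test are on none of the muscle lists. Cpxm2, a carboxypeptidase-like secreted protein (chr7:132032687-132154739), was at 68.2, 59.0, 86.8 and 84.1 CPM in controls and at 16.997 to 39.9 CPM, with a median of 29.5, in mutants (log2 fold change -1.36, SE 0.186, edgeR adjusted p = 0.0102). Moxd1, a copper monooxygenase related to dopamine β-hydroxylase (chr10:24223517-24302790), was at 57.1, 87.5, 82.5 and 76.8 CPM and at 20.9 to 45.0 CPM, with a median of 29.7 (-1.24, SE 0.187, edgeR adjusted p = 0.0233). For neither gene did a mutant reach the lowest control.

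Crispld2, a secreted cysteine-rich protein (chr8:119992438-120052793), fell by 1.01 on the log2 scale (SE 0.152, edgeR adjusted p = 0.0233), from 44.6 ± 5.73 to 22.1 ± 4.21 CPM. Clec11a, a secreted C-type lectin growth factor (chr7:44302687-44306902), fell by 0.82 (SE 0.127, edgeR adjusted p = 0.0274), from 58.9 ± 4.99 to 33.3 ± 5.11 CPM. Tymp, thymidine phosphorylase (chr15:89371931-89377039), fell by 1.04 (SE 0.176, edgeR adjusted p = 0.0478), from 36.9 ± 9.79 to 17.9 ± 2.76 CPM, and 42.0% of its exon bases lie in exons of Ncaph2 or Sco2, where reads were not counted. All 6 mutants were below all 4 controls for each of these genes.

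The lowest p and the only rise belonged to predicted gene models. Gm1821 (chr14:46084028-46085000) was at 27.8, 46.9, 31.7 and 32.1 CPM in the controls and at 0.611 to 1.48 CPM in the mutants, a 31.6-fold lower mean (-4.93, SE 0.239, edgeR adjusted p = 7.42e-08). In E18.5 lung of the same 2 genotypes the log2 fold change was -4.89, and the difference between the tissues was 0.01 (SE 0.272). Gm13394 (chr2:28933610-28934609) was at 49.2, 43.7, 69.1 and 43.8 CPM in controls and at 73.9 to 112 CPM, with a median of 100.3, in mutants, and rose by 0.94 (SE 0.152, edgeR adjusted p = 0.0357). Near-identical copies could split the reads of such models, which was not tested.

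Cytl1, a small secreted cytokine-like protein known from cartilage cells (chr5:37735519-37739820) fell with little spread. It was at 291, 290.4, 351 and 294 CPM in controls 1 to 4, and at 137, 163, 128, 139.5, 175 and 135 CPM in mutants 1 to 6. Every mutant was below the lowest control, and the log2 fold change was -1.07 (SE 0.109, edgeR adjusted p = 0.000584).

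Cytl1 was the only 1 of 32 cartilage genes to pass. Most of the rest lay the same way without passing: 29 of 32 were below 0, 18 had an unadjusted p under 0.05 with the mutants lower, 5 had no overlap, and the median was -0.63. The shares over all genes tested were 47.4% below 0, 3.42% with such an unadjusted p, and 1.22% with all mutants below all controls. This list, too, was chosen with earlier results of these data known. Summed over the list, controls 1 to 4 held 16978, 19480, 24538 and 24144 CPM, and mutants 1 to 6 held 10032, 8006, 6889, 10294, 18905 and 19400 CPM. Mutants 1 to 4 lay below all controls, whereas mutants 5 and 6 lay within the range of the controls. Col2a1 was at 6224, 8836, 9804 and 10046 CPM in controls and at 1897 to 8857 CPM in mutants (-0.84, SE 0.404, edgeR adjusted p = 0.733). Acan, the aggrecan core protein of cartilage, was at 993, 877, 1300.3 and 1127 CPM in controls and at 377 to 862 CPM, with a median of 503, in mutants, without overlap (-0.90, SE 0.219, edgeR adjusted p = 0.295). Matn3, a matrix adaptor of cartilage, was at 146 ± 34.3 and 55.1 ± 25.99 CPM (-1.40, SE 0.315, edgeR adjusted p = 0.290). DESeq2 called Acan and Matn3 beside Cytl1, and limma voom called Cytl1, Fgfr3, Matn3, Runx2 and Snorc. Sox9, the transcription factor that specifies chondrocytes, was at 95.3 ± 11.7 and 80.4 ± 16.8 CPM with overlap (edgeR adjusted p = 0.765).

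Genes of tissues that adjoin the trachea varied widely between libraries. The skeletal muscle list, 32 genes of striated neck muscle, summed to 5296, 610, 110 and 1782 CPM in controls 1 to 4 and to 283, 364, 57.0, 3600, 1678 and 5547 CPM in mutants 1 to 6, a 97.4-fold range that spanned both genotypes. Acta1, skeletal α-actin, ran from 5.61 CPM in mutant 2 to 1432 CPM in mutant 6, and Myh8, the perinatal myosin, from 1.18 CPM in mutant 2 to 679 CPM in mutant 6. Ttn, titin, which heart also expresses, ran from 13.3 CPM in mutant 3 to 554.5 CPM in mutant 4. The thyroid list summed to 636, 129, 28.8 and 23.4 CPM in controls and 185, 78.0, 33.6, 585, 34.5 and 378 CPM in mutants, and Tg, thyroglobulin, ran from 3.57 to 592 CPM. The cardiac muscle list was highest in control 2, at 2945 CPM against 125 to 1126 CPM elsewhere (median log2 fold change -0.75, and 0.77 without control 2), and Myh6, the atrial and adult heart myosin, was at 617 CPM there and at 4.56 to 278 CPM in the other libraries.

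**Figure D3:**
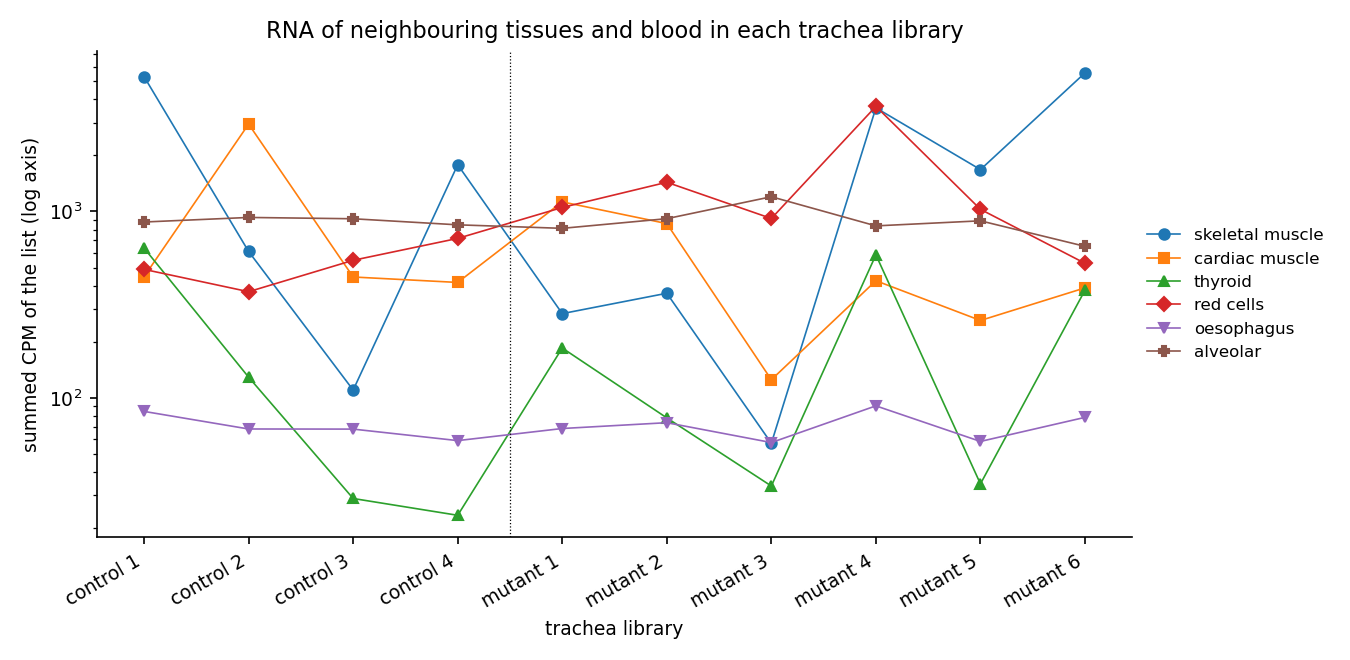
Summed CPM on a log axis of 6 lists of neighbouring tissue and blood genes in each trachea library, controls left of the dotted line and mutants right of it; lines only join the points of a list. Over the 10 libraries skeletal muscle runs from 57.0 to 5547 CPM and thyroid from 23.4 to 636 CPM, with high and low libraries in both genotypes, while the oesophagus and alveolar lists vary less.

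Other neighbours were low or even. Pth and Gcm2, which define parathyroid, had no read in any of the 10 libraries. The thymus list summed to 18.02 to 35.9 CPM, with Rag1, Rag2 and Dntt at or near 0. The oesophagus list summed to 57.5 to 90.5 CPM, and the alveolar list to 650.5 to 1200 CPM. None of the skeletal, thyroid, cardiac, oesophagus, thymus, parathyroid, alveolar, bone or fat genes passed the test, which 0.071% of all genes did. Where libraries varied most the SE was wide, at 1.84 for the log2 fold change of Acta1. Of the 12564 genes with a mean of 5 CPM or more, 220 had a within-genotype SD of log2 CPM above 1, against a median of 0.252. The 15 with the largest SD were Xist and the Y-linked Eif2s3y, Ddx3y, Uty and Kdm5d, which follow the sex of the embryo, and Myh4, Myh1, Mybpc1, Myoz1, Atp1b4, Myh3, Atp2a1, Sypl2, Myh8 and Acta1, of which 7 are on the skeletal muscle list.

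Contractile genes that striated muscle also expresses carried that variation. Des, the muscle intermediate filament desmin, was at 261, 88.0, 95.0 and 179 CPM in controls and at 27.6 to 225 CPM in mutants, highest in the libraries with most skeletal muscle RNA (control 1 and mutant 6), with a log2 fold change of -0.70 (SE 0.664, edgeR adjusted p = 0.830). Tpm2, β-tropomyosin, had -0.64 (SE 0.628). With the skeletal muscle list as a covariate the SE of Des was 0.198 and its log2 fold change -0.89 (edgeR adjusted p = 0.241). In the same fit, Cnn1 (-2.53, edgeR adjusted p = 0.0255) and Cald1 (-0.65, edgeR adjusted p = 0.0297) passed, 16 genes passed in all, and 12 of the 13 were among them.

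The comparison was then made apart in the 5 libraries whose skeletal muscle list summed to under 1000 CPM (controls 2 and 3, mutants 1 to 3) and in the 5 above it (controls 1 and 4, mutants 4 to 6), a split chosen after the data were seen. Myh11 had a log2 fold change of -2.09 (SE 0.202) under 1000 CPM and -1.96 (SE 0.269) above it, where it no longer passed (edgeR adjusted p = 0.965). Cytl1 had -1.17 (SE 0.155) and -0.97 (SE 0.175), Mylk -0.92 and -1.10, and Chrm2 -2.10 and -2.95. For each of the 13 genes the direction was the same in both sets. Their lack of overlap between genotypes over all 10 libraries fixed this in advance, so it is no separate support. The 12 smooth muscle genes little used by striated muscle had medians of -0.89 and -1.15.

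Cartilage differed more between the sets. Under 1000 CPM, 1 gene rose (0.00535%) and 26 fell (0.139%), 12 of which were cartilage genes, Cytl1 among them, and the cartilage median was -1.14. Above it, 1 gene fell (Gm1821, 0.00518%) and the cartilage median was -0.28. Col2a1 had -1.79 (SE 0.221) and -0.20 (SE 0.444), and Ucma, a protein of upper-zone chondrocytes, -1.61 and 0.03. The difference between the sets was not tested, and with 2 controls and 3 mutants in each the individual libraries weigh heavily. Mutants 5 and 6, whose summed cartilage list lay within the control range, are both above 1000 CPM. So is mutant 4, whose sum lay below it. Single cartilage genes did not all follow the sum: Cytl1 was at 175 and 135 CPM in mutants 5 and 6, below every control.

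**Figure D4:**
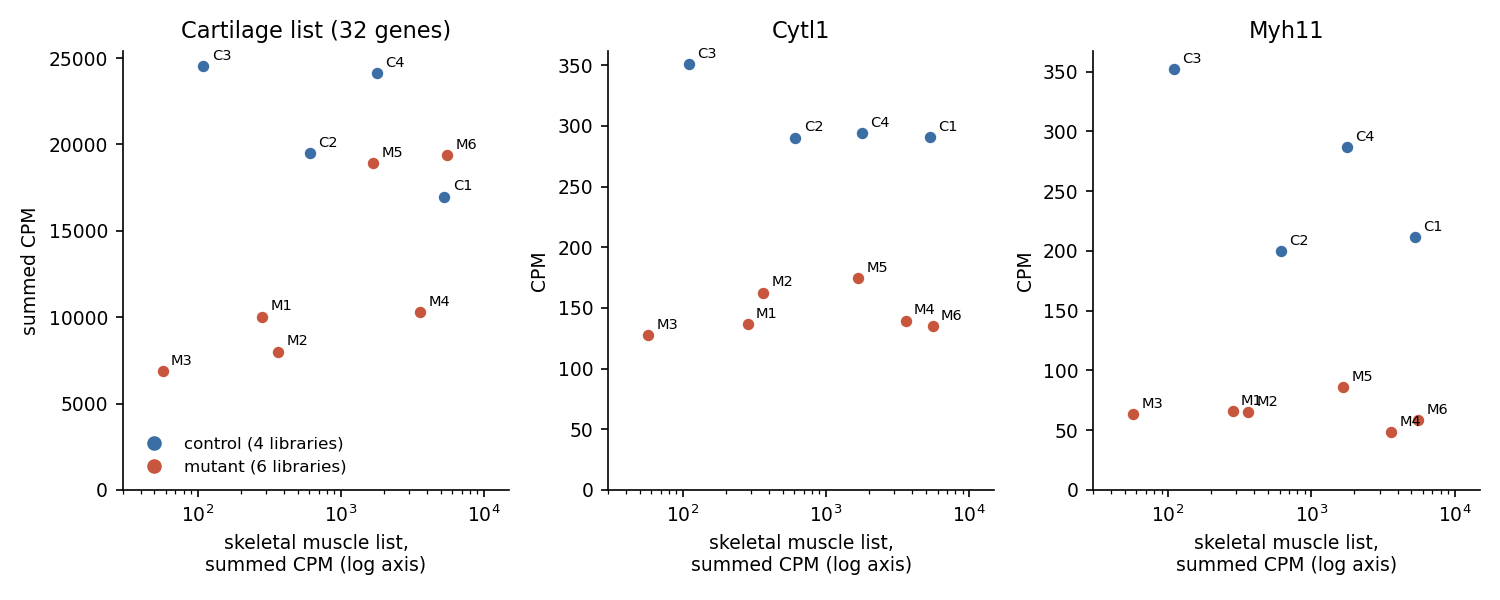
Summed CPM of the 32 cartilage genes (left), and CPM of Cytl1 (middle) and Myh11 (right), against the summed CPM of the skeletal muscle list on a log axis, a point per library labelled C1 to C4 and M1 to M6. In Cytl1 and Myh11 every mutant is below every control at any skeletal muscle level, whereas mutants 5 and 6 lie among the controls in the cartilage sum.

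**Figure D5:**
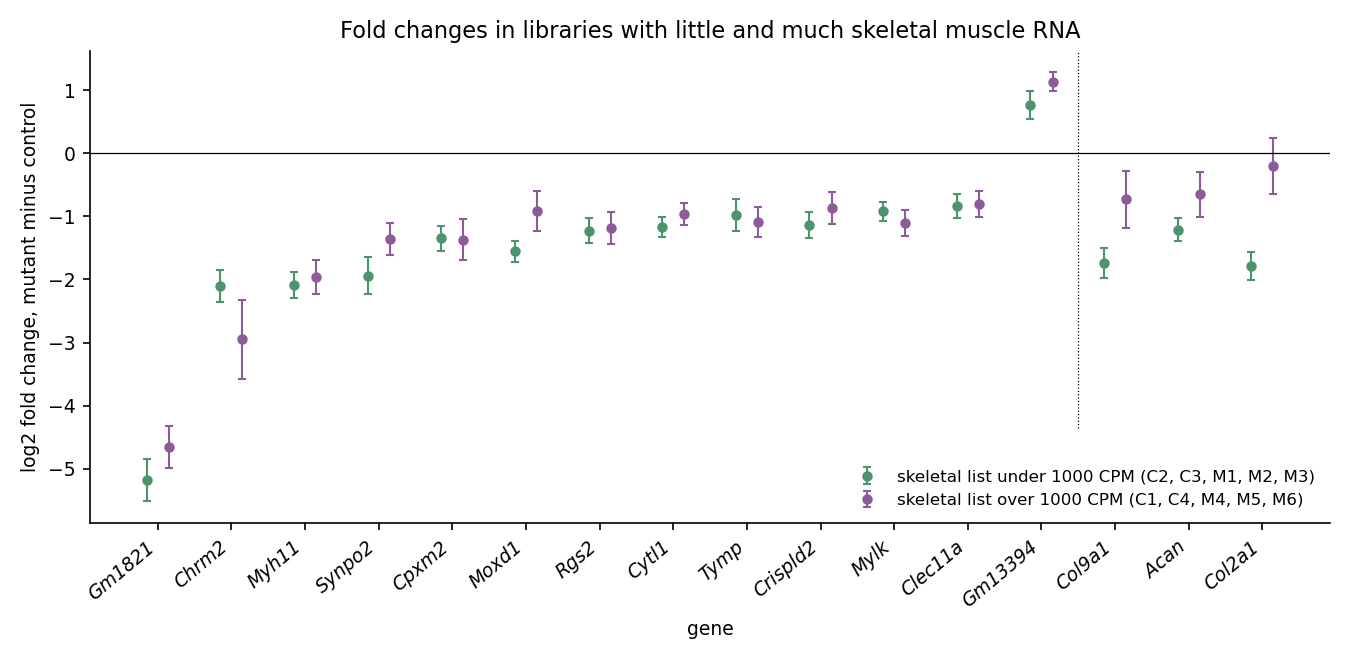
Log2 fold changes with SE bars, from separate fits to the 5 libraries under and the 5 libraries over 1000 CPM of skeletal muscle genes, for the 13 genes past the test and, right of the dotted line, 3 cartilage genes. The 13 run from -5.18 for Gm1821 to 1.13 for Gm13394. They keep their direction in both sets, which their lack of overlap over the 10 libraries fixed in advance. Col2a1, whose ranges overlap, is at -1.79 and -0.20.

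Ribosomal RNA also varied between the libraries. The poly(A)-selected libraries held between 1.52% and 26.2% of their counts in 9 loci (mt-Rnr1, mt-Rnr2, Rn7sk, CT010467.1, Lars2, Mir6236, Gm15564, Gm23935 and Gm26917), of which mt-Rnr1 and mt-Rnr2 are the mitochondrial ribosomal RNAs and Rn7sk is a small nuclear RNA made without a poly(A) tail. Controls 1 to 4 had 5.07%, 1.98%, 1.61% and 1.70%, and mutants 1 to 6 had 1.52%, 11.8%, 12.2%, 26.2%, 6.16% and 1.55%. The 3 highest libraries were thus all mutants (2, 3 and 4), while mutants 1 and 6 were at or below the controls. None of the 9 loci passed (log2 fold changes 1.26 to 2.54). With their mean as a covariate 4 of the 13 genes passed: Gm1821, Myh11 (-1.90, edgeR adjusted p = 0.00293), Cytl1 (-1.08, edgeR adjusted p = 0.00319) and Rgs2 (-1.04, edgeR adjusted p = 0.0497). The cartilage median was then -0.49 and that of the 12 smooth muscle genes -0.99. Cartilage was low in mutant 1, with 1.52% at these loci, as well as in mutants 2 to 4, and the part of ribosomal RNA in the cartilage values was not tested further.

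The red cell list had no member past the test. It summed to 489, 371, 547 and 717 CPM in controls and to 1051, 1435, 917, 3666, 1027 and 527 CPM in mutants, with only mutant 6 inside the control range, and all 6 tested members were above 0 with a median of 1.37. Without mutant 4, which held the highest sum, the median was 0.82. Hbb-bs, an adult β-globin, was at 267, 213, 290.0 and 385 CPM and at 272 to 1929 CPM (edgeR adjusted p = 0.667). With this list as a covariate, 3 of the 13 genes passed (Gm1821, Myh11 and Cytl1). Among the calls lost, the log2 fold changes of Mylk (-0.91), Rgs2 (-1.07), Tymp (-1.08) and Chrm2 (-2.14) stayed near those without the covariate, while those of Moxd1 (-0.80) and Crispld2 (-0.66) were over 1.5 times smaller. Since the list was higher in 5 of 6 mutants than in any control, its part and that of the deletion cannot be told apart in that fit.

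The airway lining showed no called change. Since only 0.071% of all genes passed, the lack of a call says little about this or any other list. Of 29 ciliated cell genes none passed and the median was 0.00, with Foxj1, the regulator of motile cilia, at 218 ± 13.9 and 215 ± 42.2 CPM. None of 12 basal cell genes (median 0.08) and none of 22 secretory and gland genes (median 0.02) passed. Pigr, the receptor that carries polymeric antibody across epithelium, was at 18.4 ± 5.29 and 6.06 ± 3.12 CPM without overlap (-1.60, SE 0.344, edgeR adjusted p = 0.191), and Sec14l3, an airway lipid-binding protein, at 463 ± 86.2 and 294 ± 54.1 CPM (edgeR adjusted p = 0.244). Among 15 general epithelial genes, Krt8 and Krt19, keratins of simple epithelium, lay above all controls in all 6 mutants (1.09% of all genes did), at 440.1 ± 33.7 against 358 ± 20.6 CPM and 719.7 ± 94.8 against 586 ± 19.3 CPM, and neither passed.

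Elastic fibres, stretch-responsive genes and nerve did not pass either. Eln, elastin, was at 12947, 10132, 11340 and 12505 CPM in controls and at 5560 to 9504 CPM in mutants, without overlap (-0.48, SE 0.154, edgeR adjusted p = 0.596), while the list of 14 elastic fibre genes had a median of -0.06. The 14 stretch and YAP target genes had a median of -0.26, and their sum did not overlap, with 1283 to 1394 CPM in controls and 848 to 1209 CPM in mutants. Ccn2, a matricellular YAP target, was at 203 ± 21.0 and 132 ± 39.99 CPM without overlap (edgeR adjusted p = 0.653). S100b, a calcium-binding protein of glia that chondrocytes also make, was at 41.0, 42.3, 42.2 and 41.2 CPM in controls and at 16.9 to 29.0 CPM in mutants (-0.85, SE 0.157, edgeR adjusted p = 0.0733). Erbb3, a neuregulin receptor of Schwann cells, was at 101 ± 9.56 and 101 ± 11.2 CPM. Endothelium (median 0.04), cell cycle (0.11), patterning signals (-0.05) and perichondrium and tendon (-0.17) had no member past the test.

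The effect of the mutation was compared with that in E18.5 lung by a test of the difference over 20 libraries, in which 5 of 19859 genes (0.0252%) passed. Trachea and lung libraries of the same genotype and number were of the same sex in 10 of 10 cases, so they may come from the same embryos, which the labels do not say, and the test treats them as independent. With a block for the shared number, 4 of the 5 genes still passed and Lrrc23 did not. Myh11 was at 273 ± 74.2 and 67.1 ± 12.98 CPM in trachea and at 105 ± 6.62 and 78.8 ± 9.11 CPM in lung (control and mutant, SD, n = 4 and 6), a difference of -1.61 (SE 0.203, edgeR adjusted p = 0.000350). Mylk was at 755 ± 54.1 and 683 ± 36.5 CPM in lung, a difference of -0.86 (SE 0.151, edgeR adjusted p = 0.0303), and Rgs2 at 180.0 ± 16.9 and 164 ± 12.3 CPM, a difference of -1.07 (SE 0.178, edgeR adjusted p = 0.0163). The log2 fold change in trachea was thus lower than in lung for these 3 muscle-related genes. These are values of bulk tissue, and which cells supplied the RNA of each gene in each tissue was not tested. Cytl1 had 2.46 and 3.32 CPM in lung, and its difference was -1.50 (SE 0.181, edgeR adjusted p = 0.000323).

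Lrrc23, a protein of the radial spokes of motile cilia, was the only gene whose difference was above 0. It was at 58.8 ± 9.16 and 34.9 ± 5.69 CPM in lung, and at 182, 208, 218 and 233 CPM in control trachea against 223 to 366 CPM, with a median of 280.5, in mutant trachea. In trachea alone it did not pass (0.45, SE 0.144, edgeR adjusted p = 0.596), and the difference was 1.20 (SE 0.195, edgeR adjusted p = 0.0142). Acta2 (-1.72, SE 0.534, edgeR adjusted p = 0.441), Cnn1 (-1.41, SE 0.495, edgeR adjusted p = 0.516) and Chrm2 (-1.44, SE 0.489, edgeR adjusted p = 0.493) did not pass the test of the difference.

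The call of a gene depended on single libraries except for 3. Gm1821, Myh11 and Cytl1 passed whichever library was left out. Mylk and Rgs2 passed in 9 of 10 such fits, failing without control 4 (edgeR adjusted p = 0.0549 for each), and Cpxm2 in 7. Moxd1 passed in 4, Crispld2, Clec11a and Gm13394 in 3 each, and Chrm2, Synpo2 and Tymp in 2 each. With control 2 and mutant 4 both left out, 45 genes passed (40 lower, 0.21%, and 5 higher, 0.0263%), 11 of the 13 among them, and Synpo2 (edgeR adjusted p = 0.208) and Gm13394 (edgeR adjusted p = 0.0596) did not.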

How the data were processed

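Per the labels' protocols, RNA of each trachea was isolated with TRIzol, cleaned on columns and made into TruSeq V2 libraries, which do not mark strand. Per the submitters' processing notes reads were aligned with STAR to GRCm38. The deposited read counts per gene were made, per the file headers, with featureCounts 1.6.2 and GENCODE vM17, so that reads in overlapping genes or at several places went uncounted. Symbols were matched for 53620 of 53715 gene IDs. The main test was edgeR 4.0.16 (TMM, filterByExpr, robust quasi-likelihood F test, two-sided). It was also run on simulated counts with known changes. Those counts were drawn gene by gene without carry-over, so that run does not bear on carry-over. Spread between libraries is the SD of log2(CPM + 0.1). Alternatives used DESeq2 1.42.0 and limma 3.58.1; exon overlap used bedtools 2.31.1. Libraries of a group differed beyond sampling noise (lowest chi-square per degree of freedom 16.6).

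Named genes were Myocd, the largest non-overlapping changes at 5 CPM or more, list members past the test or the most abundant, the 15 most variable genes and the calls of the difference test; 2 predicted models fell outside that rule, and every other named gene was chosen after its values were seen. Members and lists were chosen with earlier results of these data known.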

Additional observations from a re-analysis of the deposited data

Results flagged for a closer look

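Of 182 groups of values looked at for a library far from the rest of its group, 22 had one. The rule flags about 1 in 20 groups of independent, normally distributed values. These groups hold CPM values and sums, partly share genes, and include genes chosen after their values were seen. The 22 can therefore not be set against that rate. Control 2 accounted for 8 of the 22. Its cardiac muscle sum was 2945 CPM and Myl7, an atrial light chain, was at 348 CPM. Its nerve and glia sum was 502 CPM, with the neuronal genes Prph at 67.0 and Stmn2 at 62.6 CPM. It also stood out for Jph2 (41.2 CPM), Matn1 (35.4 CPM) and Krt18 (245 CPM).

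Mutant 4 accounted for 7, with sums of 3666 CPM for red cells, 3250.0 CPM for hypoxia and glycolysis, 10377 CPM for elastic fibres and 848 CPM for stretch and YAP targets, and with Krt18 at 417, Bpifa1 at 367 and Mamdc2 at 4.38 CPM. The others were control 1 for the ribosomal RNA share (5.07%) and Cald1 (83.1 CPM), control 3 for Cytl1 (351 CPM), mutant 2 for the thymus sum (35.9 CPM), mutant 3 for Sec14l3 (398 CPM), mutant 5 for Tymp (23.2 CPM) and mutant 6 for Myh8 (679 CPM).

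The bulk log2 fold change between genotypes differed between trachea and lung, by the test of the difference itself, for 5 genes. These were Cytl1 (-1.50), Myh11 (-1.61), Lrrc23 (1.20), Rgs2 (-1.07) and Mylk (-0.86), in log2 units of trachea minus lung.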

How the results depend on the processing

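The 13 genes past the test were 13 with relative log expression scaling, 11 without robust estimation, 8 without TMM scaling and 22 without the low-count filter. Leaving out 1 library gave 3 (without control 4) to 16 (without mutant 4), and 7 without control 1, 6 without control 3, 8 without mutant 1 and 5 without mutant 3. An oesophagus covariate gave 6, a thyroid covariate 11 and a sex covariate 15. Among alternatives chosen after seeing the data, a red cell covariate gave 3, a ribosomal RNA covariate 4, leaving out control 2 and mutant 4 together 45, and the libraries with little or much skeletal muscle RNA 27 and 1. DESeq2 called 99 and limma voom 145, both including all 13. None of the 13 genes changed direction, which their lack of overlap between genotypes largely fixed in advance. Some lists of neighbouring tissue with no call did: the cardiac muscle median of -0.75 became 0.77 without control 2, 0.76 without control 2 and mutant 4, and 0.48 under limma voom, and the skeletal muscle median of -0.11 became 1.13 without control 1.

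Replicate numbers are shared between groups, but same-numbered controls and mutants had correlated deviations of -0.264, 0.195, 0.444 and 0.0276, and 2 of 4 controls correlated best with their own number, so the numbers were not taken as pairs. With a replicate block 28 genes passed, 9 of the 13 among them, and 10 cartilage genes, with a cartilage median of -1.03. The 5 genes of the difference from lung were 2 (without lung control 4) to 9 (without lung control 2) with 1 library left out, 3 without trachea control 3 or lung control 3, 8 without trachea mutant 4, 5 with a replicate block (4 of them shared, Lrrc23 lost) and 66 under DESeq2. The cause of these shifts was not tested. Control 2 and mutant 4 were the shallowest libraries, at 11738468 and 12384284 counted reads. Control 2 had a count in 16530 genes and mutant 4 in 20198, against 22138 to 26167 in the other libraries. Ccl25 was at 0 CPM in control 2 and at 8.65 to 11.99 CPM in the other libraries. Ttc41 was at 0 CPM there and at 10.6 to 26.2 CPM in the others. After TMM scaling, the library size of mutant 4 was below that of control 2. Mutant 4 nevertheless held Ccl25 at 8.65 CPM and Ttc41 at 26.2 CPM, and had a count in more genes than control 2. What lowered these values in control 2 was not tested.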
